A study of Rattus norvegicus with 16 samples.

Results

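The 10 claudin genes Cldn1, Cldn2, Cldn3, Cldn4, Cldn5, Cldn7, Cldn8, Cldn15, Cldn18 and Cldn23 were followed in the stomach and the middle intestine of suckling Wistar rats (Wistar Han in the methods). They were picked by the gene name given in the array files and are covered by 11 probes (2 for Cldn2 and 1 for each of the others) of 30367 probes and 26115 gene symbols in all. Rats received either saline solution (C) or obestatin (OH, 250 nmol/kg BW), a peptide made from the same precursor as ghrelin. Both were given into the stomach 2 times a day from day 14 of life until day 21, when the tissues were taken. With 2 tissues and 2 treatments there were 4 groups of 4 arrays, each array with Cy5-labelled RNA of 1 rat hybridised against the same Cy3-labelled pool of RNA of the study's rats. No dye was swapped. The RNA came from pieces of tissue and not from sorted cells, so that fewer cells of a type and less RNA per cell cannot be told apart.

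Claudins are membrane proteins with 4 spanning segments that meet across the gap between neighbouring cells and form the strands of the tight junction. Some members seal the paracellular route, while others, such as Cldn2 and Cldn15, form pores for small cations and water. Epithelia differ in the set of claudins they express, and the gut lining is a textbook example.

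On the array each gene was read by a probe of 60 bases. The probes of Cldn18, Cldn7, Cldn15, Cldn2 and Cldn5 are shown since the contrast between the stomach claudin, the intestinal claudins and the vessel claudin rests on them. Their positions are those of the array design on the rat build rn4. Cldn18 was at chr8:104564165-104564224 on the minus strand, Cldn7 at chr10:56812476-56812646 on the plus strand, Cldn15 at chr12:20844124-20844183 on the plus strand and the first probe of Cldn2 at chrX:127546789-127546848 on the plus strand. The Cldn5 probe was placed on an unanchored part of chromosome 11, and the Cldn7 probe spread over 171 bases of the genome. The letters are those of the deposited files, in lower case and with no part marked.
Cldn18 probe: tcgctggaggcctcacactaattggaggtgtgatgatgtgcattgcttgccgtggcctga
Cldn7 probe: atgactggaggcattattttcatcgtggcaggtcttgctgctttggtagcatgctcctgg
Cldn15 probe: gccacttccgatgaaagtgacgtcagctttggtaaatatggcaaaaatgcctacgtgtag
Cldn2 first probe: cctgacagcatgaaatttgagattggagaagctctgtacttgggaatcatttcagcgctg
Cldn5 probe: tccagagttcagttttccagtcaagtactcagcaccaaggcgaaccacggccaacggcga
The other probe of Cldn2 lay further towards the 3′ end of the same transcript, at chrX:127548305-127548364, and was the brighter of the pair. The transcripts named for all 11 probes were found in RefSeq (assembly GRCr8) under the same gene symbol. Exon and UTR limits were not used here, as no annotation on rn4 was at hand.

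RefSeq promoters (GRCr8, 250 bases before to 50 after the gene start) were found for 7 of the 10 genes. They were searched on both strands for the GC box letters GGGCGG, the TATA box letters TATAAA, the AGATAA letters bound by GATA factors, the TTTATG letters bound by CDX factors and the Grainyhead core AACCNGTT. A GC box was held by 6 of the 7 (all but Cldn8) and by 34.9% of all 27457 promoters. The TATA box (14.3% of all promoters), GATA (11.3%), CDX (12.5%) and Grainyhead core (1.97%) letters were found in 0 of the 7 windows, which says only that those letters were not there. Each window lies at the gene start given in RefSeq. Whether the stomach or the intestine uses that start was not tested, so no window is linked to the signals below. Cldn18 was the gene highest in stomach over intestine, and Cldn7 and Cldn15 were far higher in the intestine. The windows of Cldn18, Cldn7 and Cldn15 are shown with the GC box in capitals. They lie at chr8:109144570-109144869 on the minus strand, chr10:55188420-55188719 on the plus strand and chr12:25343576-25343875 on the minus strand.
Cldn18 promoter: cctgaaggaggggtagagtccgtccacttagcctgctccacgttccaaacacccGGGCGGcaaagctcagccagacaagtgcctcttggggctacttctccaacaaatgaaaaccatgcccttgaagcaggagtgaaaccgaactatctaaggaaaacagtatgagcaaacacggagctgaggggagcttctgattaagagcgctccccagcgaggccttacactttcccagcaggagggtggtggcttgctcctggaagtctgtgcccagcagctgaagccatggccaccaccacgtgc
Cldn7 promoter: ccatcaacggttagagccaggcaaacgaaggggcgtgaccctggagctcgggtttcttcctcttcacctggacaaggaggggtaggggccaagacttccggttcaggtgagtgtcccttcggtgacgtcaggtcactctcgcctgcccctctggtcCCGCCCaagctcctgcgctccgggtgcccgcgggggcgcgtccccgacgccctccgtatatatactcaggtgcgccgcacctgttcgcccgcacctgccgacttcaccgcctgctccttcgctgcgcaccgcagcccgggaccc
Cldn15 promoter: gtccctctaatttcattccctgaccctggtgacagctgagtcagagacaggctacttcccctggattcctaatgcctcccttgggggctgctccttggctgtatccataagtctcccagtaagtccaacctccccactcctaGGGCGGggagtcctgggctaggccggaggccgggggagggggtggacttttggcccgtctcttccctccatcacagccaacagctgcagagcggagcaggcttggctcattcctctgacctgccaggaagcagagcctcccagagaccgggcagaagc
The Cldn7 window held 28 CG dinucleotides, against a median of 7 over all promoters, the Cldn18 window 9 and the Cldn15 window 6.

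All values below are log2 of the Cy5 over the Cy3 signal (log2 ratio), so that 0 is the level of the reference pool, and levels of different probes are not set against each other. Of the 30367 probes, 21174 passed the filter on dim probes, and among the claudins only Cldn8 did not. The software called between 69.4% and 77.6% of probes well above background in Cy5, and arrays of one group correlated at r between 0.71 and 0.94. A list of 10 gastric mucosa genes averaged 3.03 (SD 0.16, n = 4) in stomach and -3.75 (SD 0.13, n = 4) in middle intestine of C rats, and 12 enterocyte genes averaged -3.39 (SD 0.11) and -0.30 (SD 0.30), so that each list was higher in the tissue it marks. Striated muscle genes ran from -1.26 on replicate 2 to 3.49 within C stomach, and exocrine pancreas genes reached -1.31 on replicate 4 of OH middle intestine, where the group's lowest array was at -3.01. The arrays of each group lay on 1 slide, and C and OH slides were scanned on different days, so slide and scan day cannot be told apart from treatment. The median raw Cy3 signal of the pool was 188 to 195 on C arrays and 341 to 399 on OH arrays.

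**Figure D1:**
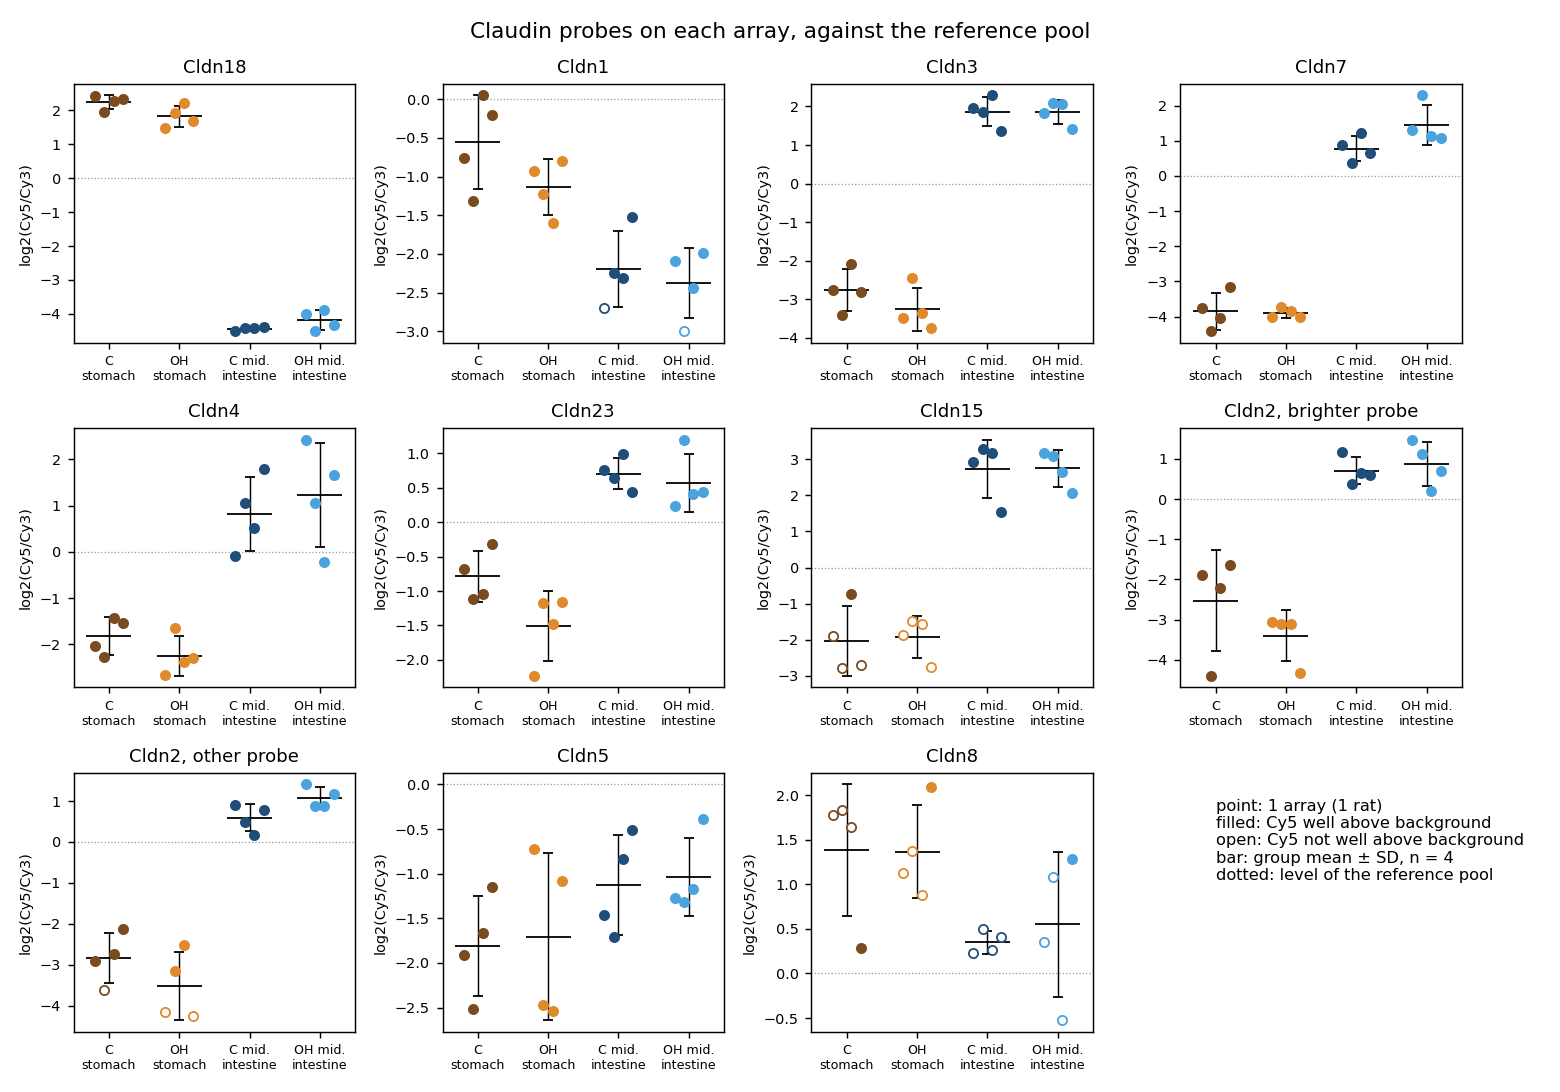
Log2 ratio (Cy5 over Cy3) of the 11 claudin probes on every array, by group; points are arrays, bars the group mean ± SD (n = 4), and open points are arrays where Cy5 was not well above background. Cldn18 and Cldn1 lie higher in stomach, 7 probes lie higher in the middle intestine with no overlap, and Cldn5 overlaps between the tissues.

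The claudin set differed sharply between stomach and middle intestine. In C rats 9 of the 10 probes tested passed an adjusted p of 0.05 (limma, Benjamini-Hochberg over all probes), while 44.9% of all probes tested did so, and in OH rats 9 of 10, with 38.2% of all probes. In both, 2 probes (Cldn18 and Cldn1) were called higher in stomach, as were 22.7% of all probes in C and 19.2% in OH rats. The 7 probes of Cldn2 (both), Cldn3, Cldn4, Cldn7, Cldn15 and Cldn23 were called lower in stomach, as were 22.3% of all probes in C and 19.1% in OH rats. Of the 9, the probes of Cldn1 and Cldn15 and the first of Cldn2 passed the filter only through the tissue where they are higher. This favours a difference, so no support is drawn from their calls. Of the 7 probes well above background on all 16 arrays, 6 were called in C and 6 in OH rats. The 9 probes called did not overlap between the tissues, and 43.7% (C) and 35.2% (OH) of all probes tested did not either. The median size of the log2 difference over the 10 probes was 3.34 in C and 4.44 in OH rats, against 0.44 and 0.38 over all probes tested.

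Cldn18, a barrier claudin of the gastric lining, was the leading stomach gene. Its log2 ratios were 2.41, 1.95, 2.27 and 2.32 in C stomach and 1.47, 1.93, 2.21 and 1.68 in OH stomach. In the middle intestine they were -4.50, -4.42, -4.43 and -4.39 in C and -4.01, -4.50, -3.87 and -4.32 in OH. The tissues were far apart on every array, and Cy5 was well above background also in the intestine. Stomach exceeded middle intestine by 6.67 on the log2 scale (SE 0.17, 102-fold, adjusted p = 8.9e-13, limma) in C rats and by 6.00 (SE 0.17, 63.8-fold, adjusted p = 4.1e-12) in OH rats. The 4 C intestinal arrays lay within 0.11 of each other.

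Cldn1, a sealing claudin known from stratified epithelium and skin, was the other gene higher in stomach. C stomach gave -0.76, -1.32, 0.05 and -0.21 and OH stomach -0.93, -1.23, -1.60 and -0.79. C middle intestine gave -2.70, -2.25, -2.32 and -1.52 and OH middle intestine -2.09, -3.00, -2.44 and -1.99. The tissues did not overlap within a treatment, with a difference of 1.64 (SE 0.32, adjusted p = 0.00085, limma) in C and 1.24 (SE 0.32, adjusted p = 0.0068) in OH rats. In OH rats it fell to 0.39 (adjusted p = 0.086) when the signals were background-corrected and dye-normalised anew. In each intestinal group Cldn1 was well above background on 3 of 4 arrays. Squamous epithelium genes of the forestomach were also higher in stomach: 10 of 11 were called higher in C stomach, where 22.7% of all probes were. Their mean log2 ratio spanned 0.32 to 1.81 in stomach of C rats, 0.18 to 1.21 in stomach of OH rats and -2.85 to -2.66 in all intestinal arrays. In C stomach the arrays ranked alike in these genes and in Cldn1. In OH stomach replicate 2 was highest in the squamous genes (1.21), but its Cldn1 value (-1.23) lay below those of replicates 1 and 4. Striated muscle genes were lowest on replicate 2 of C stomach (-1.26, against 2.92 to 3.49), as Cldn1 was, but ranked otherwise on the rest. In OH stomach they were at 1.06 and 0.73 on replicates 1 and 4 and at -0.66 and -0.55 on replicates 2 and 3. Cldn1 was also higher on replicates 1 and 4. The part of either list in the Cldn1 difference was not tested.

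Cldn3, Cldn7 and Cldn4, barrier claudins of simple epithelia, were all higher in the middle intestine. Cldn3 was at 1.96, 1.85, 2.29 and 1.37 in C middle intestine and at -2.76, -3.41, -2.08 and -2.82 in C stomach. The OH arrays gave 1.82, 2.10, 2.06 and 1.42 in the intestine and -3.48, -2.45, -3.36 and -3.74 in the stomach. All intestinal arrays lay above and all stomach arrays below the reference. The difference (stomach minus middle intestine) was -4.64 (SE 0.31, 24.8-fold, adjusted p = 2.3e-08, limma) in C and -5.11 (SE 0.31, 34.6-fold, adjusted p = 8.6e-09) in OH rats.

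Cldn7 gave 0.86, 0.35, 1.22 and 0.66 in C middle intestine and -3.77, -4.41, -4.04 and -3.17 in C stomach. In OH rats the values were 1.29, 2.29, 1.14 and 1.07 in the intestine and -4.01, -3.73, -3.85 and -4.02 in the stomach. As for Cldn3, the tissues were separated on every array. The difference was -4.62 (SE 0.29, 24.6-fold, adjusted p = 1.3e-08, limma) in C and -5.35 (SE 0.29, 40.7-fold, adjusted p = 2.9e-09) in OH rats.

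Cldn4 spread widely among intestinal arrays. It was at -0.10, 1.06, 0.53 and 1.80 in C middle intestine and at 2.42, 1.05, -0.22 and 1.66 in OH middle intestine. C stomach gave -2.04, -2.29, -1.43 and -1.54 and OH stomach -2.66, -1.65, -2.39 and -2.30. With an SD of 0.81 and 1.12 the intestinal groups spread far more than the stomach groups (0.41 and 0.43), yet no stomach array reached an intestinal one. The difference was -2.65 (SE 0.49, adjusted p = 0.00053, limma) in C and -3.48 (SE 0.49, adjusted p = 5.5e-05) in OH rats.

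The pore-forming claudins showed the same side. Cldn15, the main cation pore of the small intestine, was at 2.93, 3.28, 3.17 and 1.53 in C middle intestine and at 3.19, 3.10, 2.65 and 2.06 in OH middle intestine. In the stomach it was not well above background on 3 of 4 C arrays and on all 4 OH arrays, where the log2 ratios were -1.91, -2.79, -0.72 and -2.71 in C and -1.88, -1.49, -1.56 and -2.75 in OH. In OH rats the scaled Cy5 signal of the intestine was at least 28.8-fold that of the stomach, taking for the stomach the higher of the probe's own signal and the dimmest signal called above background. Such bounds hold for Cy5 signals scaled between arrays (Aquantile), are open to dye bias as no dye was swapped, and are no bound on the ratio. The ratios differed by -4.67 (25.4-fold, adjusted p = 2.8e-06, limma). In C rats, where only 1 of 4 stomach arrays measured Cldn15, they differed by -4.76 (SE 0.48, adjusted p = 2.1e-06), a value that rests on dim stomach signals.

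Cldn2, the cation and water pore of leaky epithelia, was read by both of its probes. The brighter one gave 1.18, 0.39, 0.66 and 0.59 in C middle intestine and -1.90, -4.39, -2.20 and -1.64 in C stomach. OH rats gave 1.47, 1.12, 0.21 and 0.69 in the intestine and -3.05, -3.10, -3.10 and -4.33 in the stomach. Replicate 2 stood low within C stomach and replicate 4 within OH stomach. The difference was -3.24 (SE 0.50, adjusted p = 0.00013, limma) in C and -4.27 (SE 0.50, adjusted p = 1e-05) in OH rats.

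The first probe of Cldn2 ran the same way, with -3.43 (SE 0.37, adjusted p = 3.6e-06, limma) in C and -4.60 (SE 0.37, adjusted p = 1.9e-07) in OH rats. Its log2 ratios were 0.91, 0.49, 0.17 and 0.79 in C and 1.41, 0.88, 0.88 and 1.17 in OH middle intestine. In the stomach they were -2.91, -3.62, -2.73 and -2.12 in C and -4.16, -3.15, -2.51 and -4.25 in OH, with Cy5 well above background on 3 and 2 of 4 arrays. Both probes of this gene gave the same order of tissues. The first passed the filter through the intestine alone, which favours a difference, so no support is drawn from it.

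Cldn23, a less studied member found in gut surface epithelium, showed the smallest of the 7 intestinal differences. Its log2 ratios were 0.76, 0.64, 0.99 and 0.44 in C middle intestine and -0.68, -1.11, -1.04 and -0.31 in C stomach. OH middle intestine gave 0.24, 1.20, 0.42 and 0.44, and OH stomach -2.23, -1.17, -1.48 and -1.15. The difference was -1.49 (SE 0.26, 2.81-fold, adjusted p = 0.00037, limma) in C and -2.08 (SE 0.26, 4.23-fold, adjusted p = 2.1e-05) in OH rats.

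Cldn5, the claudin of blood vessel endothelium, did not pass the test between tissues. It gave -1.91, -2.51, -1.66 and -1.15 in C stomach and -1.46, -1.71, -0.83 and -0.51 in C middle intestine, and these ranges overlapped. OH stomach gave -0.73, -2.47, -2.54 and -1.08 and OH middle intestine -1.27, -1.32, -1.17 and -0.39. The difference was -0.68 (95% interval -1.59 to 0.22, adjusted p = 0.21, limma) in C and -0.66 (-1.57 to 0.24, adjusted p = 0.24) in OH rats, so the intervals still held differences of up to 1.59 on the log2 scale.

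Cldn8, a sealing claudin of the distal nephron and colon, was well above background on 1 array each of C stomach, OH stomach and OH middle intestine and on 0 of 4 arrays of C middle intestine. It was left out of the tests, and no order of groups is read from its ratios.

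**Figure D2:**
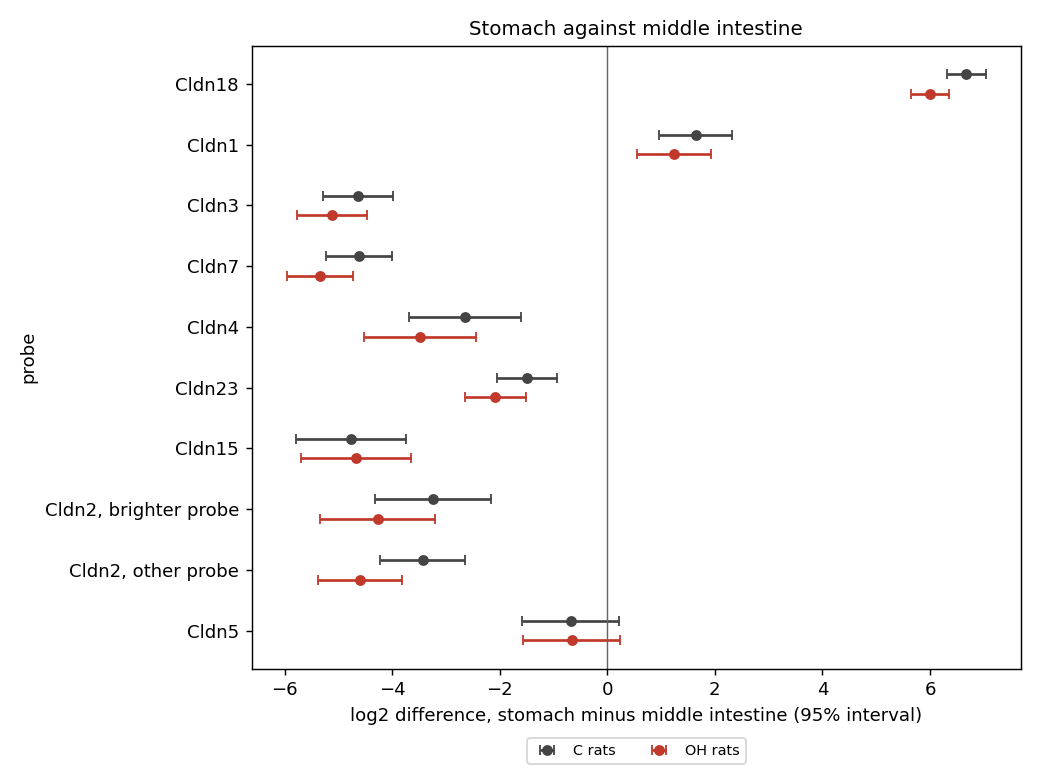
Log2 difference between stomach and middle intestine for the 10 claudin probes tested, in C and OH rats; points are limma estimates and bars 95% intervals (n = 4 arrays per group). Only Cldn18 and Cldn1 lie to the right of 0, Cldn5 crosses 0, and the 7 other probes lie to the left; Cldn15 was not well above background in OH stomach and on 3 of 4 C stomach arrays.

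In every order of the 4 group means, both stomach groups lay on one side and both intestinal groups on the other. No pair of neighbours of the same tissue (C and OH) passed the test for any of the 10 probes, whereas the gap between the tissues passed it within each treatment for all but Cldn5.

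With obestatin, no claudin passed the test. In stomach 0 of the 10 probes were called (limma, 0% of all probes tested, smallest adjusted p 0.39 among the claudins), with 2 at an unadjusted p under 0.05 where 10.6% of all probes were. In middle intestine 0 of 10 were called (0.368% of all probes tested, smallest adjusted p 0.42), with 1 at an unadjusted p under 0.05 where 10.5% of all probes were. The response to OH differed between the tissues for 0 of 10 probes (0% of all probes, smallest adjusted p 0.84), with 2 at an unadjusted p under 0.05, where 5.85% of all probes were. In stomach 8 of the 9 estimates other than that of Cldn15 were negative, with a median of -0.49 (8 of 10 and -0.46 with it). Cldn15 was near background there. Cldn2 counts with 2 probes, and the first was well above background on only 2 of 4 OH stomach arrays. In middle intestine 7 of 10 were positive, with a median of 0.13. The medians over all probes tested were 0.007 in stomach and 0.001 in middle intestine. Genes of other cell types also shifted in stomach, with 0 called: striated muscle genes had a median of -2.22 (8 of 9 negative, 5 at an unadjusted p under 0.05), squamous genes of -0.60 (10 of 11 negative) and endothelial genes of 0.47 (8 of 9 positive). Their part in the claudin values was not tested. The comparisons within a tissue used different arrays, but they share the slides and scan days of C and OH.

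Cldn23 gave the lowest p in stomach. Its values, listed above, did not overlap between C (-1.11 to -0.31) and OH (-2.23 to -1.15), as was so for 1 of 10 claudin probes and 7.6% of all probes tested. The difference was -0.72 (95% interval -1.28 to -0.16, unadjusted p = 0.016, adjusted p = 0.39, limma). The processed Cy5 signal alone differed by -0.32 and the Cy3 signal of the reference by 0.40. The part of the reference signal in this ratio was not tested. In middle intestine C and OH did not overlap for 0 of 10 claudin probes and 5.86% of all probes tested.

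Cldn18 differed by -0.42 in stomach (95% interval -0.78 to -0.06, unadjusted p = 0.026, adjusted p = 0.42, limma), and its C and OH ranges overlapped. In middle intestine it differed by 0.26 (-0.10 to 0.62, adjusted p = 0.66). The difference between both responses was -0.68 (SE 0.24, unadjusted p = 0.012, adjusted p = 0.84). Genes common to all epithelia ran in the same direction in stomach, where their mean log2 ratio was 0.47 to 0.99 in C and 0.00 to 0.56 in OH, with all 5 estimates negative and 0 of 5 called, and gastric mucosa genes lay within 2.82 to 3.20 in C and 2.23 to 3.00 in OH. Their part in the Cldn18 values was not tested.

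Cldn7 in middle intestine was the largest estimate of the opposite sign, at 0.67 (95% interval 0.06 to 1.29, unadjusted p = 0.034, adjusted p = 0.42, limma), with overlapping groups. Its Cy5 signal was 12.99 to 13.84 on the log2 scale in C and 12.79 to 13.91 in OH, and the mean differed by -0.20. The Cy3 signal of the reference was 12.33 to 12.74 in C and 11.62 to 11.85 in OH, and the mean differed by -0.87. These signals come from different slides and scan days, and the part of the reference signal in the ratio was not tested. The estimate was -0.28 with Cy5 alone.

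The brighter probe of Cldn2 differed by -0.86 in stomach (95% interval -1.94 to 0.21, adjusted p = 0.56, limma), and the first probe by -0.67 (-1.46 to 0.11, adjusted p = 0.53). For the brighter probe the processed Cy5 signal differed by 0.06 and the Cy3 signal of the reference by 0.92. For the first probe these were -0.91 and -0.24, and the part of the reference in the ratios was not tested. Without replicate 2 of C stomach, the array low in striated muscle genes, the brighter probe differed by -1.48 and was called (adjusted p = 0.0495), and the number of claudin probes called rose from 0 to 1 while that of all probes rose from 0 to 311. In middle intestine the estimates were 0.17 (-0.90 to 1.24) and 0.50 (-0.29 to 1.28). The processed Cy3 signal of these probes moved in opposite directions between C and OH arrays: for the brighter one it was 8.61 to 9.14 in C and 9.53 to 9.91 in OH, and for the first one 7.07 to 7.63 in C and 6.73 to 7.14 in OH.

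For the other members the intervals were wide. In stomach the estimates were -0.58 (-1.26 to 0.11) for Cldn1, -0.49 (-1.14 to 0.16) for Cldn3, -0.43 (-1.47 to 0.62) for Cldn4, -0.06 (-0.67 to 0.56) for Cldn7 and 0.11 (-0.80 to 1.01) for Cldn5. For Cldn15, near background in stomach, no direction is given. In middle intestine they were -0.18 (-0.87 to 0.50) for Cldn1, -0.02 (-0.67 to 0.64) for Cldn3, 0.41 (-0.64 to 1.45) for Cldn4, -0.13 (-0.70 to 0.43) for Cldn23, 0.02 (-1.01 to 1.05) for Cldn15 and 0.09 (-0.82 to 1.00) for Cldn5.

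**Figure D3:**
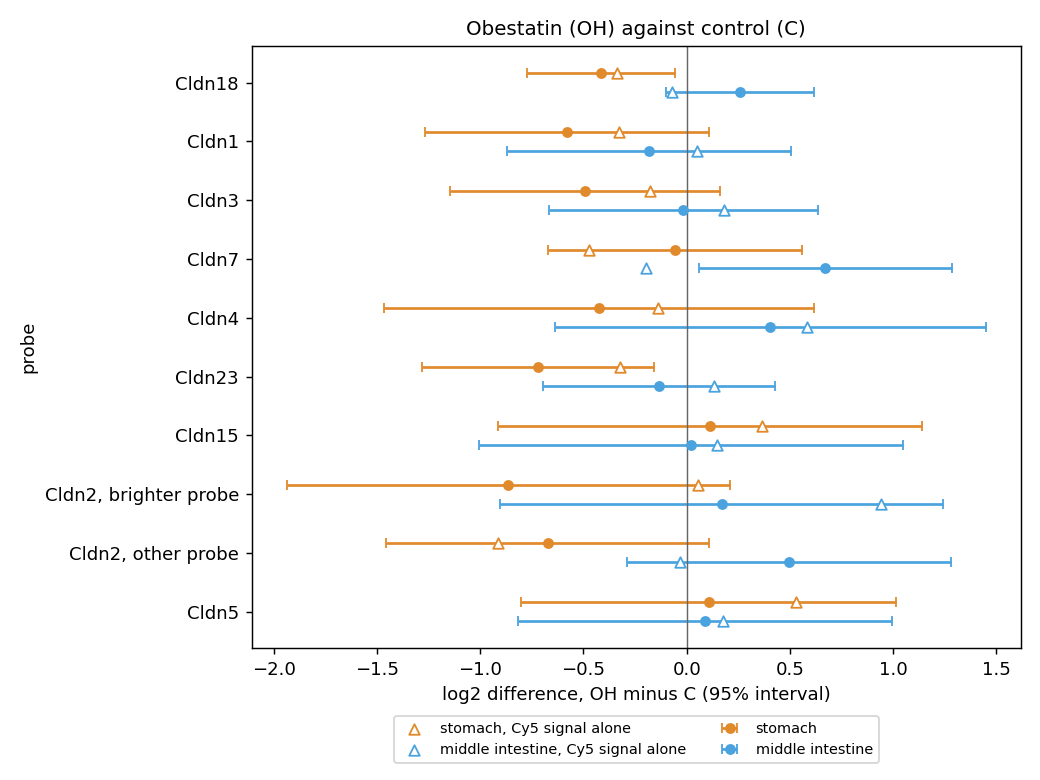
Log2 difference between OH and C rats for the 10 claudin probes tested, in stomach and middle intestine; filled points are limma estimates of the ratio with 95% intervals, and open triangles the difference of the processed Cy5 signal alone. Cldn18 and Cldn23 in stomach and Cldn7 in middle intestine are the intervals that leave out 0 before adjustment, and for Cldn7 the triangle lies on the other side of 0. Cldn15 was near background in stomach, and no direction is read from it there.

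The claudins were then set beside all other genes. Over the 16 arrays Cldn18 was most like Slc5a5, the iodide carrier of gastric mucosa (Pearson r = 0.999), Gkn2, a gastrokine (0.999) and Aldh3a1 (0.998). Cldn3 was most like Cdh17, the liver-intestine cadherin (0.992), Slc15a1, the peptide carrier (0.991) and Gpr128 (0.991), and Cldn7 like Reep6, Dnajb3 and Ush1c (0.990 to 0.992). Cldn15 was most like Mro, Slc7a9 and Nlrc4 (0.981 to 0.984), Cldn2 like Tmc5, Dmbt1 and Tmprss4 (0.985 to 0.986), Cldn4 like Plin2, Rab30 and Apoc2 (0.964 to 0.972), Cldn23 like Sh3bp2, Nr1h4 and Bmp3 (0.964 to 0.970) and Cldn1 like Faxdc2, Ly6g6e and Cilp (0.946 to 0.955). These are the highest of 15761 genes compared, the arrays share the reference pool, and for genes that differ between the tissues r mainly measures that gap, since the arrays of the 2 tissues form separate clusters.

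Cldn5 followed another pattern. Its nearest genes were C1qtnf9, Dpt and Apbb1ip (r = 0.933 to 0.938), and after each group's mean was removed they were Ramp2, a receptor partner of the vessel peptide adrenomedullin (0.963), Ctsf and Fkbp7. A list of 10 endothelial genes (9 kept; Pecam1, Cdh5 and others, without Cldn5) was set beside each claudin on the same scale. Within groups Cldn5 correlated with it at r = 0.87 over 16 arrays, Cldn1 at 0.63, and the other claudins tested between -0.55 and 0.09. In OH stomach, where Cldn5 spread most (SD 0.93), replicates 1 and 4 were high in Cldn5 (-0.73 and -1.08) and in the endothelial list (-0.12 and -0.27), and replicates 2 and 3 were low in both (-2.47 and -2.54 against -0.89 and -1.28). Striated muscle genes were split in the same way, at 1.06 and 0.73 on replicates 1 and 4 and at -0.66 and -0.55 on replicates 2 and 3. The order of the group means was not shared: OH stomach had an endothelial mean of -0.64, like OH middle intestine (-0.64), and a Cldn5 mean of -1.70 against -1.04. The part of either list in the Cldn5 values was not tested.

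**Figure D4:**
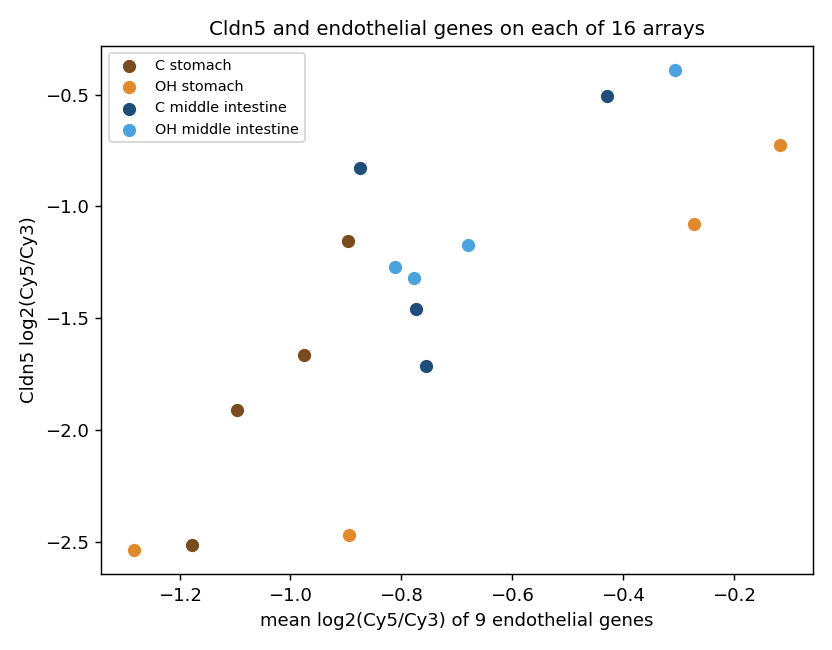
Log2 ratio of Cldn5 (y axis) against the mean log2 ratio of 9 endothelial genes (x axis) on each of the 16 arrays, coloured by group. Within groups Cldn5 is higher on arrays where the endothelial genes are higher (r = 0.87 after removal of group means).

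Among the 36 pairs of the 9 claudins tested, the highest correlations of the deviations from the group means were between Cldn3 and Cldn15 (r = 0.80), Cldn7 and Cldn23 (0.74) and Cldn1 and Cldn5 (0.71), over 16 arrays that share the reference. The lowest was between Cldn5 and Cldn15 (-0.43). Genes of all epithelia correlated within groups with Cldn7 at 0.77, Cldn23 at 0.64 and Cldn2 at 0.61.

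Of 14 other claudin genes on the array, 16 probes were present and 8 were tested. Between the tissues 2 of 8 were called in C rats, where 44.9% of all probes were, and 3 of 8 in OH rats, where 38.2% were. Between OH and C 0 of 8 were called in stomach (0% of all probes) and 0 of 8 in middle intestine (0.368%). Cldn14 was lower in stomach, with a log2 difference of -4.82 in C (SE 0.57, adjusted p = 1.1e-05, limma) and of -3.21 in OH rats (SE 0.57, adjusted p = 0.00048), but it was well above background on only 1 and 2 of 4 stomach arrays and passed the filter through the intestine alone. Cldn20 was not well above background in any intestinal array. Its scaled Cy5 signal was at least 8.73-fold higher in C stomach and at least 2.48-fold higher in OH stomach, where 3 of 4 arrays measured it. Its ratios, to which the test applies, differed by 3.08 in C (8.47-fold, adjusted p = 4.8e-06, limma) and by 2.90 in OH rats (7.44-fold, adjusted p = 9.7e-06). However, Cldn20 passed the filter through C stomach alone, which favours a difference. Its Cy3 signal was not well above background on any array, so no support is drawn from these ratios. A probe of Cldn19 was called in OH rats (adjusted p = 0.0031, limma), where the middle intestine was not well above background and the scaled Cy5 signal of the stomach was at least 1.45-fold higher. It was not called in C rats (-0.09, adjusted p = 0.78), and the difference between both was 1.17 and not called (adjusted p = 0.81). In middle intestine this probe averaged 0.83 in C and -0.24 in OH rats. That difference of -1.07 was not called (unadjusted p = 0.00061, adjusted p = 0.081, limma). The groups did not overlap, as was so for 2 of the 8 probes and 5.86% of all probes tested.

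Other tight junction genes, the scaffold, polarity and contractile partners of the claudins, were taken as a wider list. Of 36 tested, 13 were called between the tissues in C rats (36.1% of the list against 44.9% of all probes), 9 higher (22.7% of all probes) and 4 lower (22.3%) in stomach, and 13 in OH rats (36.1% against 38.2%), 8 higher (19.2% of all probes) and 5 lower (19.1%). The list's median size of difference was 0.54 in C and 0.39 in OH rats, close to 0.44 and 0.38 over all probes. In both comparisons 9 genes were called, 8 of them higher in stomach. Cgnl1 (paracingulin, a cytoskeletal linker) was well above background on 1 of 4 intestinal arrays in C rats, where it was higher in stomach by 3.16 (SE 0.42, adjusted p = 2.8e-05, limma). In OH rats no intestinal array measured it, its scaled Cy5 signal was at least 6.18-fold higher in stomach, and its ratios differed by 2.83 (adjusted p = 8.4e-05). Cxadr, an adhesion molecule of the junction, was higher by 1.67 and 0.96, Inadl, a scaffold with many PDZ domains, by 1.43 and 1.11, and Magi1 by 1.41 and 1.24.

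Marveld3, a membrane protein related to occludin, was the 1 gene lower in stomach in both, with a log2 difference of -2.53 in C (SE 0.26, adjusted p = 2.4e-06, limma; 3 of 4 stomach arrays well above background) and of -2.44 in OH rats (adjusted p = 3.9e-06). Ocln, occludin, differed by -0.11 and -0.27 and Tjp1, the scaffold ZO-1, by 0.12 and 0.19, and neither was called. The contractile genes Mylk (-2.67) and Myl9 (-1.61), and also Bves (-1.83), were called lower in C stomach and not in OH stomach. The difference between both was not called for any of the 36 genes. Between OH and C 0 of 36 were called in stomach, with 9 at an unadjusted p under 0.05 (10.6% of all probes were), and 0 of 36 in middle intestine, with 4 (10.5% of all probes were). The lowest adjusted p was 0.10, for Marveld2 (tricellulin) in middle intestine, at 0.87 (SE 0.21).

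**Figure D5:**
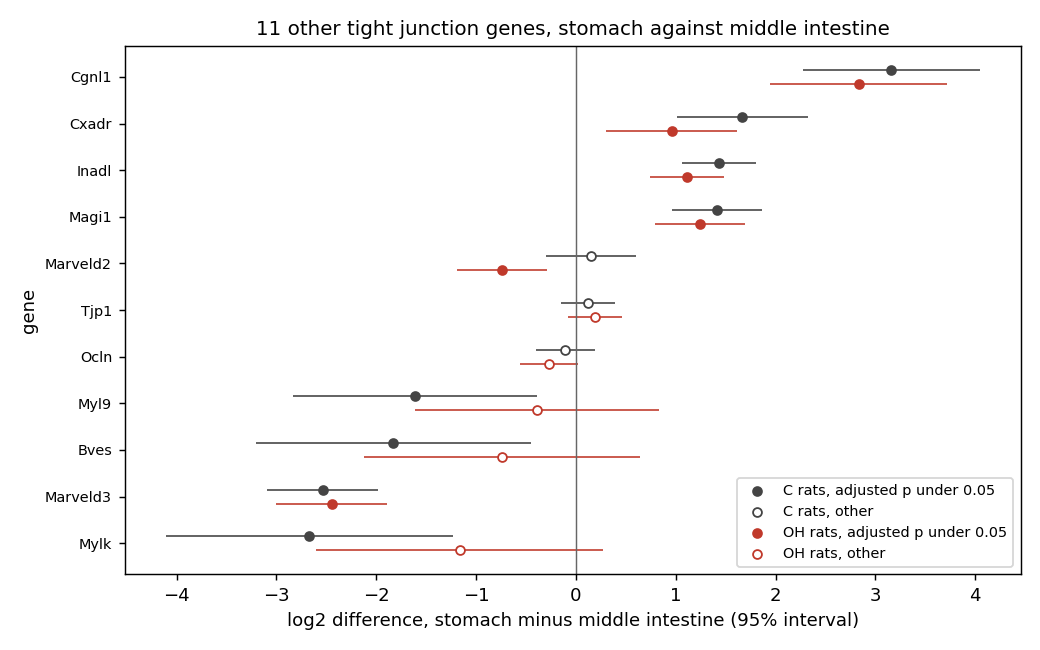
Log2 difference between stomach and middle intestine for the 11 of these tight junction genes named here, in C and OH rats; points are limma estimates, bars 95% intervals, and filled points have an adjusted p under 0.05. Cgnl1, Cxadr, Inadl and Magi1 lie highest and Marveld3 and Mylk lowest in C rats, and Ocln and Tjp1 lie near 0.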

How the data were processed

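Tissue RNA (Cy5) and a common reference pool (Cy3) were hybridised to Agilent rat 8x60K arrays, 16 in all, and the intensities deposited by the authors are processed signals of Feature Extraction (10.7.3.1 per the labels, 10.10.1.1 per the file headers), background-subtracted and Lowess dye-normalised within each array. The deposited log10 ratio table of the authors lay within 0.005 of the log10 ratios in the array files and served as an alternative. Here log2(Cy5/Cy3) was taken per spot, spots with outlier flags were left out, spots of a probe were averaged on the log2 scale, and a probe was kept where at least 1 group had its 4 arrays all called well above background in Cy5 and each group had 3 or more values (21174 of 30367), with no further scaling between arrays. A probe that passed only through the tissue where it is high was favoured to differ, and its call is no support. All 16 arrays entered 1 limma fit (R 4.3.3, limma 3.58.1; empirical Bayes, Benjamini-Hochberg over all probes, threshold 0.05), checked on simulated data. Each array held a different sample of a rat, and 4 arrays per group limit the precision. The p-values measure the spread between these rats. Per the paper 4 litters went to each treatment. The litters of the rats on the arrays are not stated, so rats of a group may be littermates. Of the members, all probes are named. For other claudins and tight junction genes, those called in both tissue comparisons are named (up to 3 highest and 3 lowest), with others named after their values were seen. Similar genes are the 3 with the highest r to the brightest probe. Members and lists were chosen with earlier results of these data known. Alternatives were other normalisations, filters, tests, a replicate block and leaving out arrays; 1 scaling and the joint removal of 2 arrays were chosen after seeing the data. Fold-change columns of the authors were not used.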

Additional observations from a re-analysis of the deposited data

Results flagged for a closer look

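In 3 of the 44 sets of 4 arrays (11 claudin probes in 4 groups), 1 array stood apart from the other 3 by more than the 95% limit of Dixon's test, where chance gives 2.2. The brighter probe of Cldn2 was at -4.33 on replicate 4 of OH stomach and between -3.10 and -3.05 on the others (gap over range 0.965). Cldn5 was at -0.39 on replicate 4 of OH middle intestine and between -1.32 and -1.17 on the others (gap over range 0.842), and the endothelial genes were highest on the same array (-0.31 against -0.81 to -0.68). Cldn8 was at 0.29 on replicate 4 of C stomach and between 1.64 and 1.84 on the others (gap over range 0.874). That array was the 1 of the group on which Cldn8 was well above background in Cy5.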

How the results depend on the processing

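Between the tissues, the 8 claudin genes called in each treatment were the same genes under every alternative and without each array in turn, with the exception of Cldn1 in OH rats under new background correction and loess normalisation (0.39, adjusted p = 0.086). The number of probes called stayed at 9 without each array in turn, and Aquantile scaling leaves the ratios unchanged by its construction. Between OH and C, claudin probes called without each array ranged from 0 to 1 in stomach, where the 1 was the brighter Cldn2 probe without replicate 2 of C stomach, and stayed at 0 in middle intestine. The count was also 0 in stomach with that array and replicate 4 of OH middle intestine both left out. Other tight junction genes called in stomach ranged from 0 to 3 (all lower, the 3 without replicate 2 of C stomach), with 2 when both arrays were left out and 1 (Ocln, lower) by ANOVA and Tukey HSD. In middle intestine 1 (Marveld2) was called with no filter on dim probes, 1 (Marveld2) with ratios scaled to one spread and 3 (Marveld2, Vasp and Rock2, all higher) by ANOVA and Tukey HSD, and the causes were not tested.

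Some differences between OH and C changed sign, all of them near 0 with the exception of Cldn7 in middle intestine (0.67). In stomach Cldn15, from which no direction is read, was -0.084 under new background correction, and Cldn7 0.38 with ratios scaled to one spread. In middle intestine Cldn1 was 0.14, Cldn3 0.12, Cldn7 -0.28 and Cldn23 0.010 with Cy5 alone, and Cldn1 0.18 and Cldn15 -0.33 with ratios scaled to one spread. With both arrays left out, Cldn5 was -0.13 and Cldn15 -0.14 in stomach, and Cldn3 0.13 and Cldn5 -0.13 in middle intestine. Without each array in turn, Cldn5 ranged from -0.22 to 0.39, Cldn7 from -0.24 to 0.17 and Cldn15 from -0.14 to 0.55 in stomach. In middle intestine Cldn1 ranged from -0.35 to 0.044, Cldn2 from -0.030 to 0.39, Cldn3 from -0.18 to 0.13, Cldn5 from -0.13 to 0.30 and Cldn15 from -0.38 to 0.25. None of these values passed the test.

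Whether stomach and intestine arrays of one number come from one rat is not stated. Deviations of same-numbered arrays correlated at between -0.12 and 0.32 between tissues, where 5 of 8 pairs correlated best with their own number, and at between -0.40 and 0.51 between C and OH, so the numbers were not taken to pair the arrays. With the replicate number as a block, claudin probes called stayed at 9 and 9 between the tissues. They stayed at 0 in each comparison of OH with C, and all probes called in middle intestine fell from 78 to 40. This block joins arrays of the same number across C and OH, which are different rats. It is therefore no test of pairing within a rat. The slide as a block could not be fitted, since each group lay on 1 slide. Signal limits Cldn8 in all groups and Cldn15 in OH stomach to bounds or to no order.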

Other observations

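The reference pool was made, per the labels, from stomach and middle intestine of the study's animals, yet Cldn5 lay below it on all 16 arrays (highest log2 ratio -0.39), Cldn14 on all 16 (highest -1.33) and Cldn1 on 15 of 16 (highest 0.05). The 9 other probes of the 10 genes lay on both sides of it. No explanation was tested.

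After removal of group means, Cldn18 was most like Slc5a5 (r = 0.90 over 16 arrays) among 15761 genes. Cldn7 was most like Fos, Vil1 and Nr1h4 (0.88 to 0.89). These genes were named after their values were seen, and the arrays share the reference.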
